A study of Mus musculus with 9 samples.

Results

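Of 18193 genes named on the arrays, 10 were examined here. They are the Id inhibitors Id1, Id2, Id3 and Id4, the E proteins Tcf3, Tcf4 and Tcf12, and the neural factors Hes6, Neurog1 and Neurod1. All probe sets annotated to 1 of these symbols alone were taken, 28 of 45037 tested, of which 8 belonged to Id genes, 14 to E proteins, 2 to Hes6 and 4 to the proneural genes. The cells were Neuro2a, an established mouse neuroblastoma line, and total RNA was hybridised after 48 h of treatment with small interfering RNAs. These were a control (siControl), 1 that targets Myt1 (siMyT1) or 1 that targets LSD1, a histone demethylase encoded by Kdm1a (siLSD1). Each group had 3 arrays, 9 in all. Every array came from the same line, and no untreated cells were among the samples. The labels do not say whether replicates were separate cultures, so the p-values reflect only how far these arrays varied, which may be technical. The study concerned Myt1 as a member of an LSD1 complex in neural cells, and the comparisons ask how the transcripts of these factors differed after loss of either protein.

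Basic helix-loop-helix (bHLH) factors bind DNA as pairs at E-boxes, short sites of the form CANNTG. Proneural factors such as Neurog1 and Neurod1 pair with an E protein and switch on neuronal genes. Id proteins have the helix-loop-helix but no DNA-binding basic region, so they hold E proteins in pairs that cannot bind, and they are known for keeping neural progenitors undifferentiated. Id genes are classical direct targets of BMP signalling through Smad proteins. Hes6 is an unusual member of the Hes family that opposes Hes1 and favours neuronal differentiation. In this nomenclature Tcf3 is the E2A gene (Entrez 21423) and Tcf4 is E2-2 (Entrez 21413), and neither is a Wnt pathway TCF.

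Levels are given in the deposited intensity units as the mean ± SD of 3 arrays, and differences as log2(value + pseudocount), with a pseudocount of 0.196 deposited units, their standard error (SE) and limma's p-value adjusted over all 45037 probe sets. A probe set with an adjusted p under 0.05 was called. Depth has no counterpart on arrays, and the number of arrays limits the precision. Both siRNAs lowered their targets by the brighter probe set, Myt1 to 13.5% of siControl in siMyT1 (adjusted p = 6.05e-06) and Kdm1a to 15.5% in siLSD1 (adjusted p = 2.21e-09). In siLSD1 the same Myt1 probe set was at 142% of siControl, with all arrays above siControl. That difference was not called in the main fit (0.49, adjusted p = 0.0956), but was after quantile normalization (0.0347) and median centring (0.0116). The other Myt1 probe set (1439365_at) was dim, at 122% of siControl in siMyT1, and was called in no comparison. Of 11 measured markers of neuroblastoma and sympathetic neurons, 9 lay above the 75th percentile of intensity. Of the lists of glial, fibroblast, leukocyte and endothelial markers, 0 genes did. In bulk RNA, fewer expressing cells and less RNA per cell cannot be told apart. The split of calls depended on the scaling between arrays. In siMyT1 against siControl 66.7% of called probe sets were higher, and 54.0% after median centring of the arrays. The shares were 44.7% and 65.2% in siLSD1 against siControl, and 67.8% and 38.3% in siMyT1 against siLSD1, where centring moved the median of all probe sets by -0.13.

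The promoters of Id2, Id3 and Id4 are shown because bHLH proteins bind E-boxes and these are the Id genes with a promoter entry. By the brightest probe sets, the means of all 4 Id genes and of Tcf4 were lowest in siMyT1 and highest in siLSD1, by little for Id1 between siMyT1 and siControl. Each sequence is the 250 bases before the RefSeq transcription start in build GRCm38.p6, on the gene's strand, with E-boxes (CANNTG, which reads alike on both strands) in capitals. Id2 is at chr12:25096093-25096342 (minus strand), Id3 at chr4:136143572-136143821 (plus strand) and Id4 at chr13:48260866-48261115 (plus strand).
Id2: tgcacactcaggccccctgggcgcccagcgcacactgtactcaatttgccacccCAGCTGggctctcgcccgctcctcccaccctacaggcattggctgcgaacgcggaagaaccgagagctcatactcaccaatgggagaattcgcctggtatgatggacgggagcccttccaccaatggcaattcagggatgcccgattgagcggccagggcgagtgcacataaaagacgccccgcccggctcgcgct
Id3: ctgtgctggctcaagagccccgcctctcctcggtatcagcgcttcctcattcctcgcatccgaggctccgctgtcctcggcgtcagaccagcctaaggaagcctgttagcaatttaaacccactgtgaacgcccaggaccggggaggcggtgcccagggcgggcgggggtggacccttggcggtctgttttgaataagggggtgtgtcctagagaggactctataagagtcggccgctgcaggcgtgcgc
Id4: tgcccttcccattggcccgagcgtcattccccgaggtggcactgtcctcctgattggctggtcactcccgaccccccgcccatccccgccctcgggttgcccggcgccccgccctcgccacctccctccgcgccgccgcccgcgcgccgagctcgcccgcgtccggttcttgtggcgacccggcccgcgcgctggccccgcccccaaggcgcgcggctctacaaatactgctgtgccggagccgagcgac
The Id2 stretch held 1 E-box and those of Id3 and Id4 held 0. Of all 32851 RefSeq promoter windows of this length, 66.2% held at least 1. The letters AAGTT, the core of the site that Myt1 family zinc fingers bind, were sought on both strands and were in none of these 3 stretches, against 35.3% of all windows. The 3 stretches were 62.8% to 75.6% G or C, and the share over all windows was not matched for this. Among the other members, AAGTT was found in windows of Tcf12, Hes6 and Neurod1. A match or its lack describes the letters of this window only. Entries were found for 8 of the 10 genes, not for Id1 and Tcf4. Hes6 had the most E-boxes among them, with 3 in its upstream-most window, of which 1 read CAGGTG or CACCTG, a variant in 17.2% of all windows.

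The Id genes separated the 2 knockdowns. Id4 was called lower after siMyT1, Id3 was called higher after siLSD1, and siMyT1 was below siLSD1 in all 4 Id genes by the brightest probe set. In siMyT1 against siControl 2 of the 28 probe sets were called, both lower and both of Id4, where 3.24% of all probe sets were called and 1.08% were called lower. In siLSD1 against siControl 1 was called, that of Id3, and it was higher, where 5.05% were called and 2.26% were called higher. In siMyT1 against siLSD1 9 were called, 8 lower and 1 higher, from 6 of the 10 genes, where 11.2% of all were called, 3.61% lower and 7.63% higher. The 8 lower probe sets were 5 of the 8 Id probe sets and 3 of the 14 E protein probe sets. The arrays of both groups did not overlap for 6 of the 28 probe sets in siMyT1 against siControl, 9 in siLSD1 against siControl and 11 between the knockdowns, beside 18.9%, 22.1% and 27% of all probe sets. The comparisons against siControl share their control arrays, and the direct comparison is the test of whether the knockdowns differed. Under both other scalings too, 8 of 8 Id probe sets had a lower value in siMyT1 than in siControl and in siLSD1. In siLSD1 the values of 6 were above siControl. Quantile normalization and median centring moved the median of all probe sets by -0.04 and -0.04 in siMyT1 against siControl. They moved it by -0.07 and -0.13 between the knockdowns, and by 0.03 and 0.09 in siLSD1 against siControl. These shifts ran the same way as the median Id differences, so this check could hardly have failed. The median log2 difference over the 8 was -0.32, -0.42 and 0.21 for siMyT1 against siControl, siMyT1 against siLSD1 and siLSD1 against siControl, beside 0.04, 0.07 and -0.03 over all probe sets. The 8 probe sets belong to 4 genes, with 3 each for Id2 and Id4. They were read on the same RNA, so they are not independent values.

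**Figure D1:**
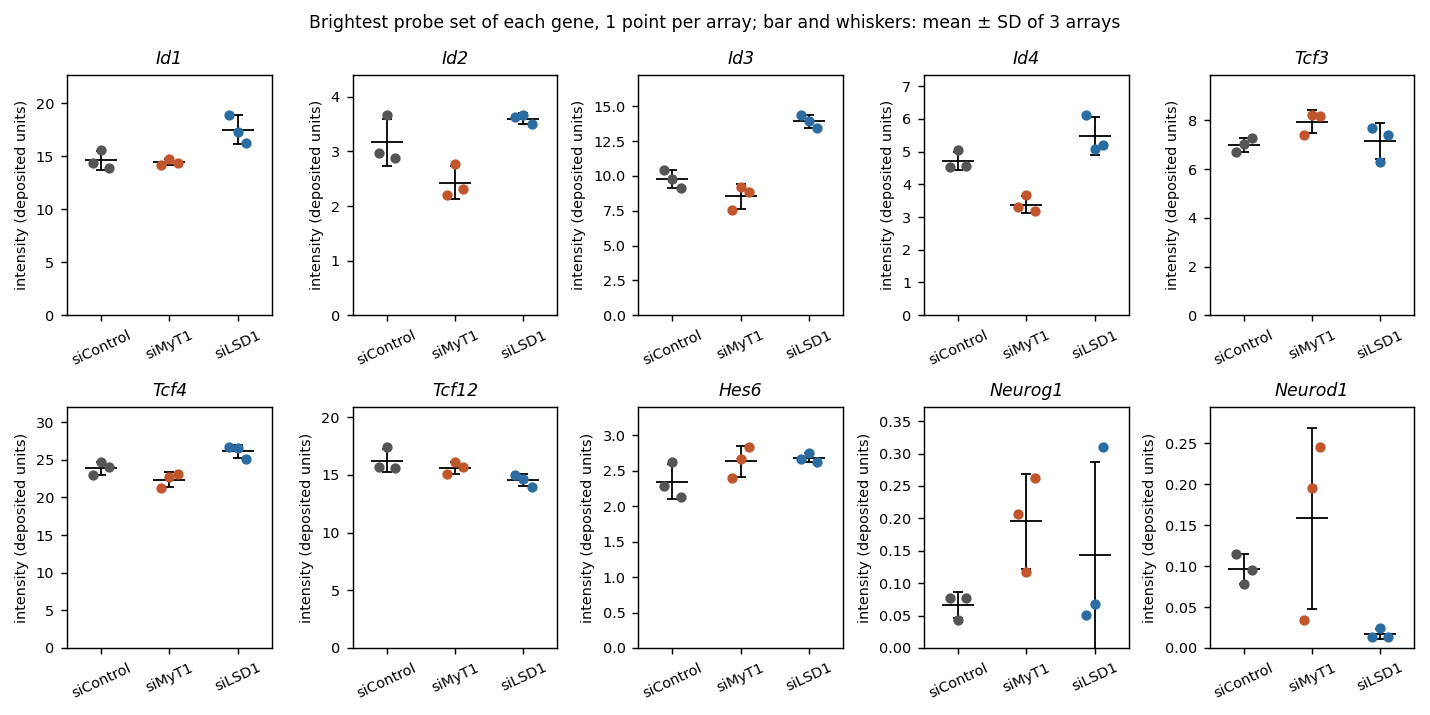
Intensity in deposited units (vertical axes from 0, a scale for each gene) of the brightest probe set of each gene in siControl, siMyT1 and siLSD1. Points are arrays, bars and whiskers mean ± SD of 3 arrays (a whisker of Neurog1 reaches below 0). The siMyT1 arrays of Id2, Id3 and Id4 all lie below every siLSD1 array, and all points of Neurog1 and Neurod1 lie at or below 0.309.

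Id4, the family member best known from neural stem cells and oligodendrocyte precursors, was the only Id gene called lower after siMyT1 in the main fit. The brightest probe set of Id2 was at 76.6% of siControl there and was not called. The brightest Id4 probe set (1423259_at) measured 4.54, 5.04 and 4.55 in siControl, 3.29, 3.67 and 3.17 in siMyT1, and 6.13, 5.07 and 5.21 in siLSD1. The 3 groups did not overlap, with siMyT1 lowest and siLSD1 highest. The siMyT1 mean of 3.38 ± 0.26 was 71.7% of the siControl mean of 4.71 ± 0.29 (log2 difference -0.46, SE 0.09, adjusted p = 0.0185). The siLSD1 mean of 5.47 ± 0.58 differed from siControl by 0.20 (95% interval 0.00 to 0.40), which was not called (adjusted p = 0.291). Between the knockdowns the log2 difference was -0.66 (SE 0.09, adjusted p = 0.000671). The dimmer probe set 1450928_at showed the same order. It measured 1.59, 2.02 and 1.82 in siControl, 1.06, 1.15 and 0.909 in siMyT1, and 2.67, 1.86 and 2.30 in siLSD1. Here siMyT1 was at 57.4% of siControl (log2 difference -0.70, SE 0.14, adjusted p = 0.0218) and at 45.6% of siLSD1 (-0.99, SE 0.14, adjusted p = 0.000899), and siControl and siLSD1 overlapped. The third probe set (1423260_at), designed to the same representative sequence as the other 2, was called in no comparison. Its siMyT1 mean was 74.0% of siControl (3.05 ± 0.60 against 4.12 ± 0.49, log2 difference -0.42, adjusted p = 0.193), with overlapping arrays, and its siLSD1 mean was 3.82 ± 0.72. The calls of Id4 against siControl rested on few arrays. For 1423259_at the adjusted p was 0.0592 without siControl replicate 1, 0.0634 without siControl replicate 2 and 0.0892 without siMyT1 replicate 3, at log2 differences of -0.48 to -0.41. For 1450928_at it was 0.0768 without siControl replicate 2, 0.0727 without siControl replicate 3, 0.0962 without siMyT1 replicate 3 and 0.0537 with the replicate number as a block. Both calls were also lost without the intensity trend (adjusted p = 0.0736 and 0.0516). The calls between the knockdowns held for both probe sets in every alternative that gave a value.

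Id3, an Id gene that responds early to BMP and serum, was the only member called higher after siLSD1 in the main fit. Id1 was at 120% of siControl there and was not called. The only Id3 probe set measured 10.4, 9.77 and 9.10 in siControl, 7.53, 9.22 and 8.81 in siMyT1, and 14.4, 13.9 and 13.4 in siLSD1. All siLSD1 arrays stood above all others, while siControl and siMyT1 overlapped. The siLSD1 mean of 13.9 ± 0.48 was 142% of the siControl mean of 9.77 ± 0.66 (log2 difference 0.50, SE 0.08, adjusted p = 0.00335). The siMyT1 mean of 8.52 ± 0.88 was 87.2% of siControl, a log2 difference of -0.20 (95% interval -0.37 to -0.02) that was not called (adjusted p = 0.275). Between the knockdowns it differed by -0.70 (SE 0.08, adjusted p = 0.000208). The calls in siLSD1 against siControl and between the knockdowns held in all 19 alternatives, at log2 differences of 0.45 to 0.59 and -0.83 to -0.61.

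Id2, which is known to bind the retinoblastoma protein as well as E proteins, was lower in siMyT1 than in siLSD1 by its brightest probe set. 1435176_a_at measured 2.98, 3.66 and 2.87 in siControl, 2.20, 2.77 and 2.31 in siMyT1, and 3.64, 3.68 and 3.50 in siLSD1. The siMyT1 arrays lay below all others, and siControl replicate 2 reached the siLSD1 level. siMyT1 was at 67.4% of siLSD1 (log2 difference -0.54, SE 0.11, adjusted p = 0.00747). Against siControl it was at 76.6% (-0.36, SE 0.11, adjusted p = 0.118). That difference was called after quantile normalization (-0.41, adjusted p = 0.00803) and after median centring (-0.40, adjusted p = 0.0213). The value in siLSD1 against siControl was 0.18 (95% interval -0.06 to 0.42, adjusted p = 0.486). The other Id2 probe sets did not separate the groups. 1422537_a_at ranged from 1.45 to 2.94 in siControl alone, an interval that held all siMyT1 arrays, and 1453596_at was dim, at 0.276 or less on all arrays. Averaging the 3 probe sets ended the call between the knockdowns (-0.35, adjusted p = 0.190).

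Id1, the Id gene most used as a readout of BMP signalling, had 1 probe set. It measured 14.3, 15.6 and 13.8 in siControl, 14.2, 14.7 and 14.4 in siMyT1, and 18.9, 17.3 and 16.2 in siLSD1. The siLSD1 arrays lay above all others, and siMyT1 lay within the range of siControl. The siLSD1 mean of 17.5 ± 1.3 was 120% of siControl (log2 difference 0.26, SE 0.07, 95% interval 0.10 to 0.41), and the adjusted p was 0.0594. It came under the threshold in 7 of 18 alternatives, among them quantile normalization (0.00825), median centring (0.0272), the fit with 1 probe set per gene (0.0336) and the fit without siControl replicate 2 (0.0429). siMyT1 differed from siControl by -0.01 (95% interval -0.17 to 0.14). siMyT1 was lower than siLSD1 by -0.27 (SE 0.07, adjusted p = 0.0266). This call was lost when any siMyT1 array or siLSD1 replicate 1 or 2 was left out, with adjusted p from 0.0571 to 0.0993. It was also lost without the intensity trend (adjusted p = 0.108). The order within the Id family thus differed between comparisons. By brightest probe set, the siMyT1 difference from siControl ran from -0.01 for Id1 to -0.46 for Id4, and the siLSD1 difference from 0.18 for Id2 to 0.50 for Id3. Whether these differences differ between Id genes was not tested.

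**Figure D2:**
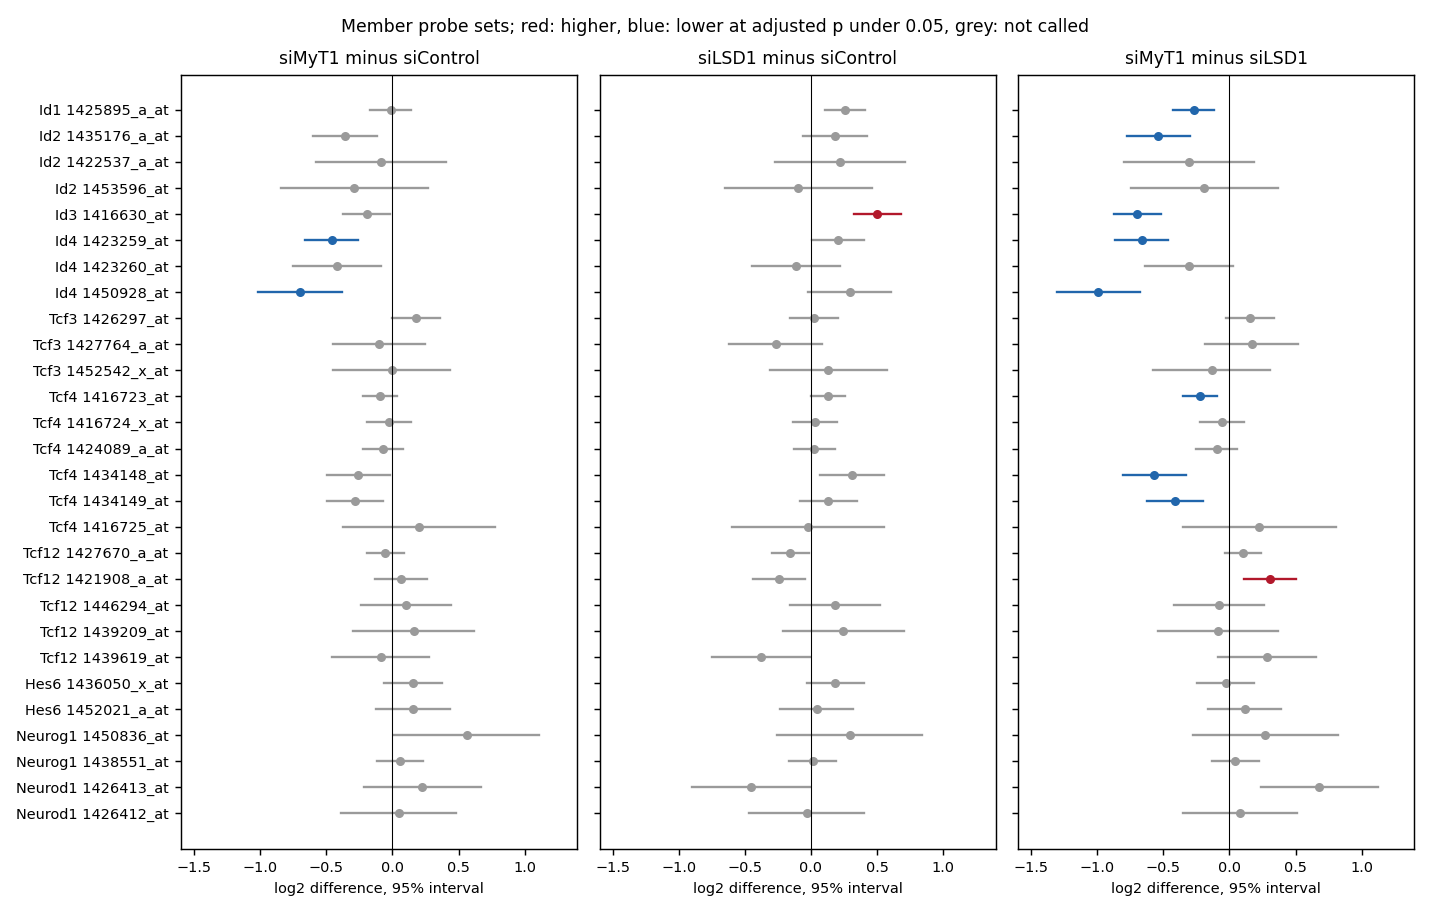
Log2 differences (points) with 95% intervals from the limma fit (lines, not adjusted for multiple tests) for the 28 probe sets in siMyT1 minus siControl, siLSD1 minus siControl and siMyT1 minus siLSD1. Red marks probe sets called higher and blue those called lower at an adjusted p under 0.05. In the panel of siMyT1 minus siLSD1 all 8 Id points lie left of 0, 5 of them called.

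The E proteins, the partners that Id proteins sequester, had 0 of 14 probe sets called by limma in either comparison with siControl. Of all probe sets 3.24% were called in siMyT1 and 5.05% in siLSD1, so 0 of 14 does not set them apart. At an unadjusted p under 0.05 there were 2 in siMyT1 and 4 in siLSD1. Between the knockdowns 3 probe sets of Tcf4 were lower and 1 of Tcf12 was higher in siMyT1, beside 3.61% and 7.63% of all probe sets. Tcf4 was measured by 6 probe sets. Its brightest, 1416723_at, measured 23.0, 24.7 and 24.0 in siControl, 21.3, 22.7 and 23.2 in siMyT1, and 26.7, 26.5 and 25.2 in siLSD1. The siLSD1 arrays stood above all others by a narrow margin. siMyT1 was at 85.7% of siLSD1 (log2 difference -0.22, SE 0.06, adjusted p = 0.0317), while against siControl the values were 93.7% in siMyT1 (adjusted p = 0.531) and 109% in siLSD1 (adjusted p = 0.314). This call was lost when siMyT1 replicate 1 or 2 or any siLSD1 array was left out (adjusted p from 0.0616 to 0.0901). The replicate block (0.0751), the compared groups alone (0.0576) and the fit without the intensity trend (0.136) also ended it. With the 6 Tcf4 probe sets averaged, the gene was not called between the knockdowns (-0.19, adjusted p = 0.136). A larger separation came from 1434148_at and 1434149_at, which share a representative sequence. 1434148_at measured 12.7, 15.6 and 12.8 in siControl, 11.2, 12.7 and 10.4 in siMyT1, and 15.4, 19.8 and 16.0 in siLSD1. All siMyT1 arrays lay below all siControl arrays, and siControl replicate 2 lay within the siLSD1 range. siMyT1 was at 66.9% of siLSD1 (-0.57, SE 0.11, adjusted p = 0.00560), a call that held in all 17 alternatives, against 83.3% of siControl (-0.26, adjusted p = 0.292). The siLSD1 mean was 125% of siControl (0.31, adjusted p = 0.158). It was called higher after median centring (0.40, adjusted p = 0.0326), with the replicate block (0.0336) and among probe sets above the median intensity (0.0425). 1434149_at was at 74.6% of siLSD1 (-0.41, SE 0.10, adjusted p = 0.0171), and lost its call without siMyT1 replicate 2 (0.0781), siLSD1 replicate 1 (0.0606) or siLSD1 replicate 3 (0.0658). The fit without the intensity trend also ended it (0.0665).

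The bright Tcf4 probe sets 1416724_x_at and 1424089_a_at gave means within 95.4% to 102% of siControl in both knockdowns. Between the knockdowns their 95% intervals were -0.22 to 0.11 and -0.25 to 0.06. These intervals leave out the differences of -0.57 and -0.41 measured by the other pair. Which transcripts of Tcf4 each probe set reads was not examined, and the difference between probe sets was not tested. The sixth, 1416725_at, was dim, at 0.262 to 0.698.

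Tcf12, the E protein also called HEB, had 5 probe sets, 2 of them bright. 1427670_a_at measured 15.7, 17.4 and 15.6 in siControl, 15.0, 16.1 and 15.7 in siMyT1, and 15.0, 14.7 and 13.9 in siLSD1. The siLSD1 arrays were below all others, at 89.6% of siControl (log2 difference -0.16, SE 0.06, adjusted p = 0.237). 1421908_a_at measured 13.6, 14.7 and 13.4 in siControl, 14.7, 14.8 and 14.0 in siMyT1, and 13.0, 9.93 and 12.4 in siLSD1. Here too siLSD1 lay below all other arrays, with replicate 2 apart from the other 2. It was 84.8% of siControl (-0.24, adjusted p = 0.180), and siMyT1 exceeded siLSD1 by 0.31 (SE 0.09, adjusted p = 0.0492). That call stood at the threshold. Leaving out siLSD1 replicate 2 gave 0.19 (adjusted p = 0.128), leaving out siLSD1 replicate 3 or any siMyT1 array gave adjusted p from 0.0744 to 0.150, and median centring gave 0.18 (adjusted p = 0.379). The other 3 Tcf12 probe sets were dim, at 1.02 or less on all arrays. Tcf3 was called in no comparison. Its brightest probe set measured 6.71, 7.03 and 7.27 in siControl, 7.41, 8.24 and 8.19 in siMyT1, and 7.70, 6.30 and 7.41 in siLSD1. The siMyT1 arrays lay above siControl by 0.18 (95% interval -0.004 to 0.36, adjusted p = 0.348). The siLSD1 range held all siControl arrays and, of the siMyT1 arrays, only replicate 1. Of its 3 probe sets, 1427764_a_at went the other way, with overlapping arrays. Its means were 94.0% of siControl in siMyT1 (-0.10, adjusted p = 0.857) and 82.0% in siLSD1 (-0.27, adjusted p = 0.474). The third, 1452542_x_at, was dim, at 98.4% and 110%.

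**Figure D3:**
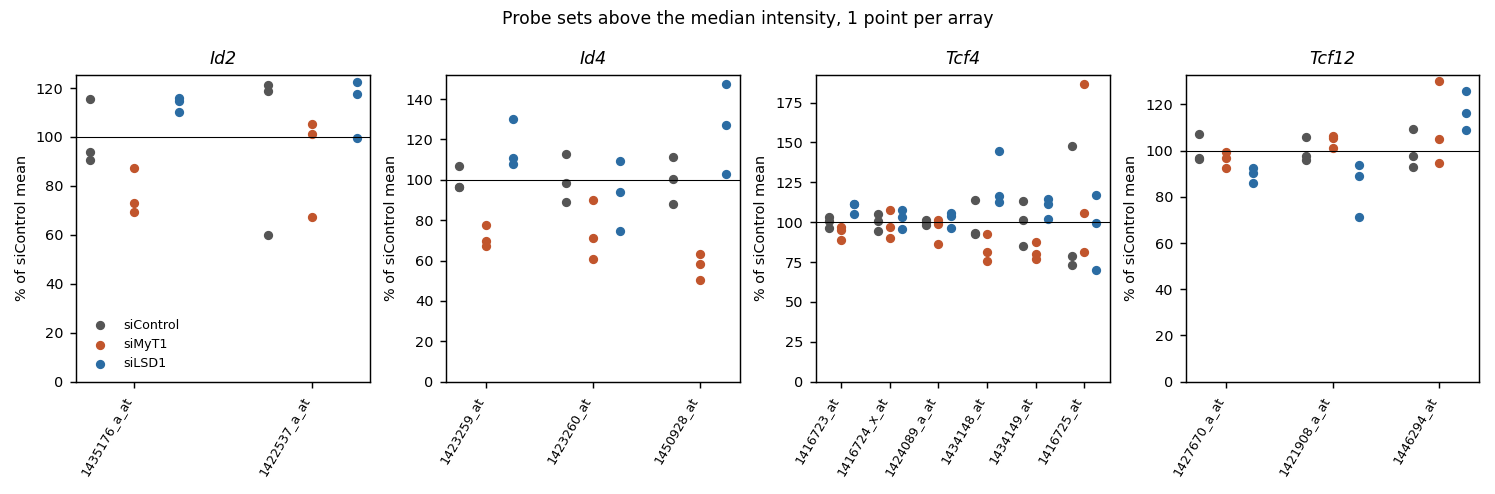
Intensity of each array as a percentage of the siControl mean (vertical axes from 0, line at 100%) for the probe sets of Id2, Id4, Tcf4 and Tcf12 that lie above the median intensity of the array. The siMyT1 points of Id4 and of Tcf4 1434148_at lie below the siLSD1 points, except for Id4 1423260_at, while those of Tcf4 1416724_x_at and 1424089_a_at mix with them.

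Hes6 was called in no comparison. Its brighter probe set measured 2.29, 2.62 and 2.13 in siControl, 2.40, 2.66 and 2.83 in siMyT1, and 2.67, 2.75 and 2.63 in siLSD1. The siLSD1 arrays lay just above siControl, at 114% (log2 difference 0.18, 95% interval -0.03 to 0.40, adjusted p = 0.415), and siMyT1 was at 112% with overlapping arrays (0.15, 95% interval -0.06 to 0.37, adjusted p = 0.539). The other probe set gave 113% and 103%, with overlap in both.

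Neurog1 and Neurod1, the proneural and neuronal differentiation factors of sensory and central neurons, were near the bottom of the scale. Their 4 probe sets lay between 0.00423 and 0.309 on all arrays. Of 6 listed genes of liver, muscle and pancreas, Alb, Apoa2, Myh6, Acta1 and Ins2 spanned 0.0105 to 0.524, and Cela1 was bright in all groups and is set apart after its values were seen. The brighter Neurog1 probe set measured 0.0776, 0.0437 and 0.0778 in siControl, 0.207, 0.117 and 0.262 in siMyT1, and 0.0508, 0.0682 and 0.309 in siLSD1. The siMyT1 arrays exceeded siControl (log2 difference 0.56, SE 0.25, adjusted p = 0.318), and siLSD1 replicate 3 exceeded both. The brighter Neurod1 probe set measured 0.115, 0.0787 and 0.0953 in siControl, 0.0337, 0.196 and 0.245 in siMyT1, and 0.0133, 0.0246 and 0.0136 in siLSD1. Its siMyT1 arrays lay on both sides of siControl, and its siLSD1 arrays below all others. The difference of 0.68 between the knockdowns had an adjusted p of 0.0520, and was 2.47 with a pseudocount of 1 (adjusted p = 0.0311). At such intensities the size of a log2 difference depends on the pseudocount, and no direction is drawn from it.

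For each Id gene, the genes of most similar pattern were taken as the 3 with the highest Pearson r of log2 values over the 9 arrays, among 11120 other genes above the median intensity. The points share arrays and the grouping, so r is a description. For Id3 these were Colgalt1, a collagen galactosyltransferase (r = 0.992), Gusb, the lysosomal beta-glucuronidase (0.986), and Fjx1 (0.985). Colgalt1 measured 14.0 ± 0.86, 12.7 ± 1.1 and 19.1 ± 0.65 in siControl, siMyT1 and siLSD1. For Id4 they were the beta-tubulin Tubb2a (0.982), the neural syndecan Sdc3 (0.982) and the kinase gene Sbk1 (0.978). Tubb2a measured 11.6 ± 0.96, 8.11 ± 0.48 and 14.3 ± 1.5, the same order of groups as Id4. For Id2 they were Coro1a, an actin-binding coronin (0.991), Zfyve28 (0.987) and Cnpy3 (0.979), and for Id1 the neuronal kinesin Kif5c (0.974), Tmem164 (0.961) and Rpn2 (0.960). All 12 kept r of at least 0.953 after quantile normalization and median centring.

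Of the BMP pathway, which lies upstream of Id genes, 25 listed genes were measured by their brightest probe sets. In siMyT1 2 rose and 0 fell by limma (4 had an unadjusted p under 0.05), where 5.13% of all 18193 genes were called. Both were inhibitors of the pathway. Bambi, a decoy receptor that is itself induced by BMP, rose from 6.84 ± 0.35 to 10.8 ± 0.79 (log2 difference 0.64, SE 0.07, adjusted p = 0.000400) and measured 6.68 ± 0.068 in siLSD1. Fst, follistatin, which binds activins and some BMPs, rose from 0.849 ± 0.096 to 2.11 ± 0.42 (1.13, SE 0.15, adjusted p = 0.00128). In siLSD1 it measured 1.28 ± 0.077, 150% of siControl, with all arrays above siControl (0.50, adjusted p = 0.0817). That difference was not called in the main fit. It was called higher after quantile normalization (adjusted p = 0.00730) and median centring (0.00603). In siLSD1 1 gene fell and 1 rose, where 7.21% of genes were called. Smad5, a transducer of BMP receptors, fell from 7.84 ± 0.18 to 4.29 ± 0.35 (-0.84, SE 0.08, adjusted p = 5.77e-05). Bmpr2, the type II receptor, rose from 11.7 ± 0.28 to 15.4 ± 0.63 (0.39, SE 0.06, adjusted p = 0.00239), but the mean of all its probe sets differed by 0.08 (adjusted p = 0.769). Between the knockdowns 4 were higher and 1 lower in siMyT1, where 16.1% of genes were called, and these included Bambi (0.67) and Smad5 (0.78). Fst was higher by 0.63 there, a call lost without siMyT1 replicate 2 (adjusted p = 0.0591) or siLSD1 replicate 3 (0.0624). The median over the list was 0.06 in siMyT1 and 0.10 in siLSD1, beside 0.05 and -0.03 over all genes.

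Among 23 other proneural and tissue bHLH genes, 17 of which lay below the median intensity, 1 was called in each comparison, against 5.13%, 7.21% and 16.1% of all genes in siMyT1 and siLSD1 against siControl and between the knockdowns. At an unadjusted p under 0.05 there were 2, 8 and 3, and the median difference in siLSD1 was -0.21, beside -0.03 over all genes. Hand2, a bHLH factor of sympathetic neurons that pairs with E proteins, fell from 51.7 ± 4.6 to 37.6 ± 1.8 in siMyT1 (-0.46, SE 0.08, adjusted p = 0.00746) and to 39.8 ± 2.8 in siLSD1 (-0.38, adjusted p = 0.0141). The siLSD1 call was lost without siControl replicate 2 (adjusted p = 0.0508), without siLSD1 replicate 3 (0.0683) and after median centring (0.149). Averaging the Hand2 probe sets also ended it (0.0518). Both Hand2 calls were lost without the intensity trend (adjusted p = 0.0638 in siMyT1 and 0.0856 in siLSD1). Lyl1, a haematopoietic bHLH gene, was dim and lower in siMyT1 than in siLSD1 (0.523 ± 0.11 units, or 52.3% of the siLSD1 mean, adjusted p = 0.0357), a call lost without siMyT1 replicate 1 or 3 or siLSD1 replicate 1 or 3 (adjusted p from 0.0911 to 0.132). Of 10 Hes, Hey and Bhlhe40 type repressors, 0 were called by limma in any comparison, and 0, 2 and 1 had an unadjusted p under 0.05 in siMyT1 and siLSD1 against siControl and between the knockdowns. Their median difference between the knockdowns was 0.21, beside 0.09 over all genes.

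Of 19 genes for cofactors and turnover of Id and E proteins, 0 were called by limma in siMyT1 (2 at an unadjusted p under 0.05) and 3 fell in siLSD1, where 5.13% and 7.21% of all genes were called. Usp1, a deubiquitinase known to stabilise Id proteins, fell from 21.0 ± 0.69 to 16.6 ± 0.41 (-0.34, SE 0.06, adjusted p = 0.00851). The call was lost without siLSD1 replicate 3 (adjusted p = 0.0535), after median centring (0.136) and without the intensity trend (0.0734). Skp2, an F-box protein of the cell cycle, fell from 9.97 ± 0.40 to 6.14 ± 0.63 (-0.69, SE 0.08, adjusted p = 0.000480). Tle4, a Groucho corepressor, fell by 0.36 (adjusted p = 0.0305). It lost the call without siControl replicate 2 or 3 or siLSD1 replicate 1 or 2 (adjusted p from 0.0542 to 0.111), after median centring (-0.28, adjusted p = 0.219) and with its probe sets averaged (-0.21, adjusted p = 0.227). The fits with the compared groups alone, with the replicate block and without the intensity trend also ended it (0.0635, 0.0658 and 0.125). Between the knockdowns Skp2, Usp1 and Tle3 were higher in siMyT1 (0.62, 0.34 and 0.31), 3 of 19 where 16.1% of all genes were called. The call of Usp1 was lost after median centring (0.21, adjusted p = 0.177). That of Tle3 was lost after median centring (0.18, adjusted p = 0.256) and without siMyT1 replicate 3 (0.0535). It also ended without the intensity trend (0.0625) and with the probe sets averaged (0.0611). E proteins and Id proteins are known to act in opposite ways on genes of cell cycle inhibitors, and 6 such inhibitors were listed. By limma 0 of them were called in siMyT1 (1 at an unadjusted p under 0.05), 1 in siLSD1 and 1 between the knockdowns, where 5.13%, 7.21% and 16.1% of all genes were called. Both calls were of Cdkn2c. Cdkn2c, an inhibitor of CDK4 and CDK6, fell in siLSD1 from 4.60 ± 0.48 to 2.22 ± 0.20 (-0.99, SE 0.10, adjusted p = 8.93e-05) and measured 4.02 ± 0.17 in siMyT1, above siLSD1 by 0.81 (adjusted p = 0.000246).

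**Figure D4:**
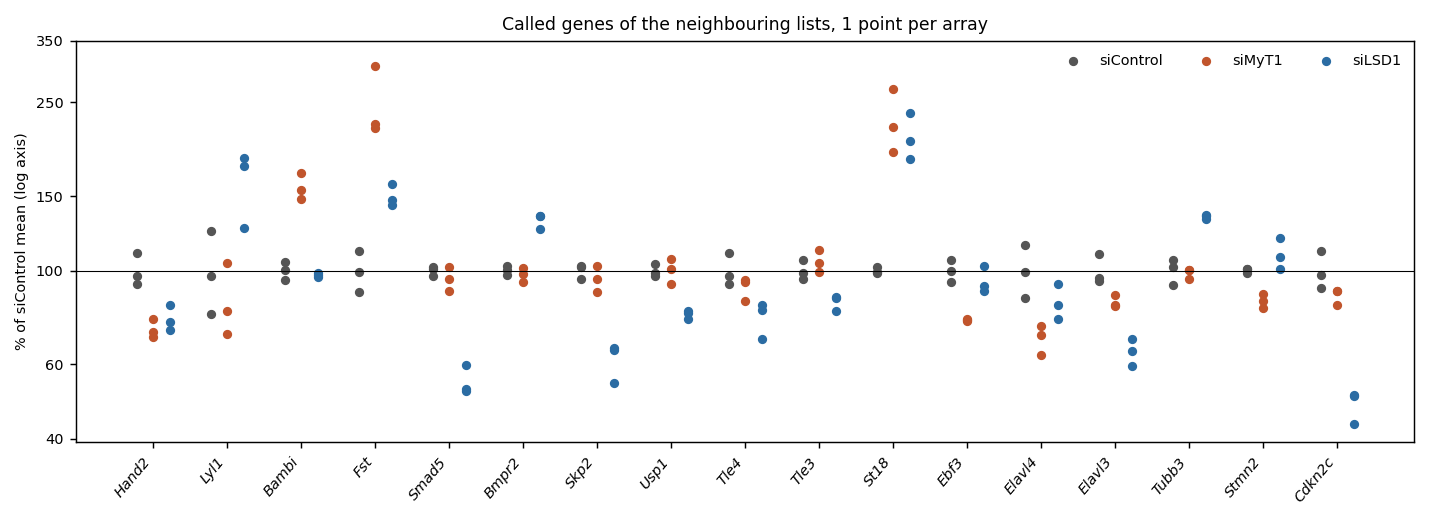
Intensity of each array as a percentage of the siControl mean (log axis, line at 100%) for the called genes of the lists of related bHLH, BMP pathway, cofactor, proneural target and cell cycle inhibitor genes that are named in the text, without Myt1. Bambi and Fst are highest in siMyT1, Smad5, Skp2, Elavl3 and Cdkn2c are lowest in siLSD1, and St18 is above siControl in both knockdowns.

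Of 26 genes known as targets of proneural bHLH factors, 3 fell and 1 rose in siMyT1, where 5.13% of all genes were called, and 1 fell and 2 rose in siLSD1, where 7.21% were. The falls in siMyT1 included Myt1 itself, the siRNA's target. St18, a paralogue of Myt1, rose in both, from 0.986 ± 0.019 to 2.23 ± 0.39 in siMyT1 (1.03, SE 0.14, adjusted p = 0.00150) and to 2.05 ± 0.26 in siLSD1 (0.92, SE 0.14, adjusted p = 0.00177). Elavl3, a neuronal RNA-binding protein, fell in siLSD1 from 15.8 ± 1.3 to 10.1 ± 0.75 (-0.63, SE 0.08, adjusted p = 0.000433). Its relative Elavl4 fell in siMyT1 (-0.52, adjusted p = 0.0187), a call that did not hold when siControl replicate 2 or 3 or siMyT1 replicate 1 or 2 was left out (adjusted p from 0.0573 to 0.0695). The fit without the intensity trend ended it as well (0.0969). Ebf3, a helix-loop-helix factor that acts after proneural genes, fell in siMyT1 (-0.38, adjusted p = 0.0165), a call that ended on leaving out siControl replicate 1 or 2 or siMyT1 replicate 2 or 3 (adjusted p from 0.0550 to 0.0723). That call was also lost without the intensity trend (0.0799). Tubb3, the neuronal tubulin, rose in siLSD1 from 22.6 ± 1.6 to 30.3 ± 0.42 (0.42, SE 0.06, adjusted p = 0.00178). Between the knockdowns 5 of the 26, Myt1 among them (-3.08), were lower and 3 higher in siMyT1, where 16.1% of all genes were called. Stmn2, a growth cone protein, was lower (-0.36, adjusted p = 0.00458). Elavl3 was higher (0.39, adjusted p = 0.00581), a call lost after median centring (0.26, adjusted p = 0.104). The markers of neuroblastoma and sympathetic neurons summed to 197 to 210 units in siMyT1, 246 to 262 in siControl and 264 to 293 in siLSD1. Of the 11 genes 7 had means in that order. Hand2 was lower in both knockdowns, as was the mean of Dbh (66.2% and 78.8% of siControl, not called). Gata3 and Isl1 measured 130% and 110% of siControl in siMyT1, also not called. In siMyT1 4 of the 11 fell and 0 rose, in siLSD1 4 rose and 1 fell, and between the knockdowns 7 were lower in siMyT1. Of all genes 5.13%, 7.21% and 16.1% were called in these comparisons, dim genes included, while all 11 markers lay above the median intensity. The sums followed the same order of groups as the Id genes by their brightest probe sets, and their part in the Id differences was not tested. Among the glial, fibroblast, leukocyte and endothelial markers, 2 were called in siMyT1, both higher and both dim. These were 1 of 6 fibroblast and 1 of 4 endothelial genes, beside 0 of 5 glial and 0 of 6 leukocyte genes. Of all genes 5.13% were called. The 2 genes are named here after their values were seen. Dcn, the fibroblast proteoglycan decorin, rose from 0.777 ± 0.053 to 1.29 ± 0.076 (0.61, adjusted p = 0.0446), a call lost on leaving out any 1 of the 6 arrays (adjusted p from 0.0608 to 0.165) and with its probe sets averaged (0.25, adjusted p = 0.461). Tek, an endothelial receptor, rose from 0.313 ± 0.033 to 0.868 ± 0.28 (1.03, adjusted p = 0.0233), a call lost on leaving out any siControl array or siMyT1 replicate 2 or 3 (adjusted p from 0.0590 to 0.0976). The fibroblast list summed to 3.74 to 5.17 units in siControl, 4.80 to 5.40 in siMyT1 and 3.76 to 3.96 in siLSD1. The endothelial list summed to 0.796 to 1.66, 1.56 to 2.53 and 1.08 to 1.45 units in the same groups. Of the 6 listed genes of liver, muscle and pancreas, 0 were called in siMyT1. In siLSD1 1 was called higher, and between the knockdowns 1 was lower in siMyT1. Their sums were 16.3 to 17.5 units in siControl, 19.3 to 20.3 in siMyT1 and 26.6 to 29.8 in siLSD1. These sums are nearly all Cela1, since each of the other 5 genes lay at 0.524 or less on all arrays. They do not describe the list as a set. The part of these markers in the Id differences was not tested.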

How the data were processed

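Per the labels' protocols, RNA was purified on columns and biotin-labelled for 1-colour arrays. The authors deposited intensities on a linear scale for 45101 probe sets. How these were summarised and scaled is not given in the sources used here, and what 1 unit stands for is unknown. Array medians lay between 0.302 and 0.424 units. The 64 control probe sets were left out. Probe sets were named from the platform's annotation table (34945 with 1 symbol). Values were multiplied by 1 constant, 163.6, chosen so that the average array has a trimmed mean (2% off either tail) of 500, and analysed as log2(value + 32). No normalization between arrays was added. Group means over all 9 arrays were fitted with limma 3.58.1 in R 4.3.3 with an intensity trend (6 residual and 6.07 prior degrees of freedom), two-sided, with Benjamini-Hochberg adjustment over 45037 probe sets. The fit was tested on simulated data. Genes in lists were represented by their brightest probe set, and up to 4 called genes per list and comparison, with the smallest adjusted p, were named. The members and lists were chosen with earlier results of these data known. Same-numbered arrays of different groups did not deviate together (correlations of deviations from group means between -0.039 and 0.043), so the numbers were not used as pairs. Alternatives covered scaling, pseudocount, dim probe sets, probe set choice, samples in the fit, variance model, array weights, the replicate block and leaving out each array.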

Additional observations from a re-analysis of the deposited data

How the results depend on the processing

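Over the alternatives, 0 of the named differences changed direction while called. Where the text names alternatives that ended a call, others may have ended it too. The number of member probe sets called was 2 in siMyT1 against siControl, 1 in siLSD1 against siControl and 9 between the knockdowns. For siMyT1 against siControl it was 3 after quantile normalization and after median centring, 1 with 1 probe set per gene, with the probe sets of a gene averaged and with the replicate block, and 0 without the intensity trend. For siLSD1 against siControl it was 3 after quantile normalization, after median centring and among probe sets above the median intensity, and 2 with 1 probe set per gene, with probe sets averaged, with the compared groups alone, with array weights and with the replicate block. Between the knockdowns it was 3 with probe sets averaged, where 10 values replace 28, and 5 without the intensity trend. Without _x_at, _s_at and _a_at probe sets, Id1 and the bright probe set of Id2 had no value. Leaving out 1 array gave 0 to 2, 1 to 2 and 5 to 7 calls in these comparisons. The replicate numbers share only a label: 6 of 18 best correlations were with the same number. With the replicate block 7 member probe sets were called between the knockdowns. Of all 45037 probe sets, 1461 were called in siMyT1 against siControl (626 without siControl replicate 1, 3161 after quantile normalization), 2275 in siLSD1 against siControl (1245 and 4219 under the same settings) and 5063 between the knockdowns (3180 without siLSD1 replicate 3, 6824 after quantile normalization). The cause of these changes was not tested. Probe sets near the pseudocount, all of Neurog1 and Neurod1 among them, allow no statement on size.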
